A study of Mus musculus with 20 samples.

Results

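The 7 genes described here carry iron into mitochondria, move other molecules across mitochondrial membranes, or hold iron-sulfur clusters in proteins of the CDGSH family. They were chosen by name as *Slc25a37*, *Slc25a28*, *Abcb8*, *Abcb10*, *Cisd1*, *Cisd2* and *Cisd3*. All 7 were among the 23420 genes of the count table, and all 7 were among the 13590 genes with enough reads to be tested. RNA-sequencing was performed on whole hearts of wild type male C57BL/6 mice (C57BL/6J in the study's methods) aged 9 weeks. Of these, 10 mice received a control diet and 10 received an iron-deficient diet for 6 weeks from 3 weeks of age, and the latter are called IDA mice, for iron-deficiency anemia. The labels give the iron of the deficient diet as below 2 ppm in one field and above that value in another. The study left out a mouse of each group for contamination without naming it in its text, so all 20 mice are kept here.

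Iron enters the mitochondrial matrix through the mitoferrins, carriers of the inner membrane, and is used there to build heme and iron-sulfur clusters. Mitoferrin-1, encoded by *Slc25a37*, is the main carrier in developing red cells, and mitoferrin-2, encoded by *Slc25a28*, is expressed in most tissues. ABCB10 is an inner membrane transporter that is induced as red cells mature and binds mitoferrin-1. ABCB8 is an inner membrane transporter of the same family, whose loss in the mouse heart leads to iron accumulation in mitochondria. The CDGSH proteins hold a cluster that can be passed on or lost: mitoNEET, encoded by *Cisd1*, sits in the outer membrane, the *Cisd2* protein in the endoplasmic reticulum and the outer membrane, and the *Cisd3* protein in the matrix.

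The stretch that binds the cluster is what the 3 *Cisd* genes share, and it is shown because it defines the family and shows how far the genes differ at the level of reads. Each is the coding strand, 5′ to 3′, from mm10 transcripts of GENCODE M21, found with the CDGSH cluster-binding pattern in the reading frame. The capitals mark its last codons, the end of the pattern for which the family is named, in which the residue before the last can differ from that in the name. *Cisd1* and *Cisd2* hold 1 such stretch, at codons 72 to 87 and 99 to 114, and *Cisd3* holds 2, at codons 70 to 85 and 108 to 123, counted from the start codon.
Cisd1: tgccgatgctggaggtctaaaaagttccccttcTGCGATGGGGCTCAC
Cisd2: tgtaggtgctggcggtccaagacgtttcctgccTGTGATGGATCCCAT
Cisd3, first: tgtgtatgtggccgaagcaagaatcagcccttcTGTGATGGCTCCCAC
Cisd3, second: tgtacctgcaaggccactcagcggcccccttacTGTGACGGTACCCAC

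*Cisd1* and *Cisd2* were identical at 32 of the 48 bases (66.7%), the closest pair. The first stretch of *Cisd3* shared 29 bases with *Cisd2* and 28 with *Cisd1*. The stretches within *Cisd3* shared 25 bases with each other, as many as the second one shared with *Cisd1*.

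Gene counts of a control heart summed to 6797180 to 8960688 read pairs, and those of an IDA heart to 6682177 to 7833916. Levels are given as CPM, read counts scaled to library size with TMM factors. Differences are edgeR log2 fold changes of IDA over control, and the adjusted p-values are those of its quasi-likelihood test, adjusted over the 13590 tested genes by the method of Benjamini and Hochberg and called below 0.05. Fold changes of all genes fell with exonic length (Spearman's rho = -0.63 over the tested genes, which are not independent), from a median of 0.34 in the shortest 10% of genes to -0.53 in the longest 10%. The slope of a mouse's log2 values on length was 0.020 to 0.199 per doubling of length in control mice and -0.254 to -0.025 in IDA mice, with no overlap. The fold changes and ratios of the 7 genes over all mice are therefore also given with a gene length correction, which removes that slope mouse by mouse whatever its source.

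Without correction, 4 of the 7 genes were higher in IDA hearts, at adjusted p below 0.05. These were *Abcb8*, *Cisd3*, *Cisd1* and *Slc25a28*. *Abcb10* was lower, and *Slc25a37* and *Cisd2* did not pass the threshold. Over all tested genes, 35.0% were higher and 32.5% lower by the same rule, and 4 of 7 higher and 1 of 7 lower are read against these shares as nothing particular to the 7 genes. The median log2 fold change of the 7 genes was 0.24, against 0.02 over all tested genes. With the gene length correction, 2 genes were higher (*Slc25a37* and *Abcb8*) and 0 lower, against 31.5% and 23.5% of all tested genes, and the median was 0.03, against 0.04. *Abcb8* was the gene called higher in both fits.

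**Figure D1:**
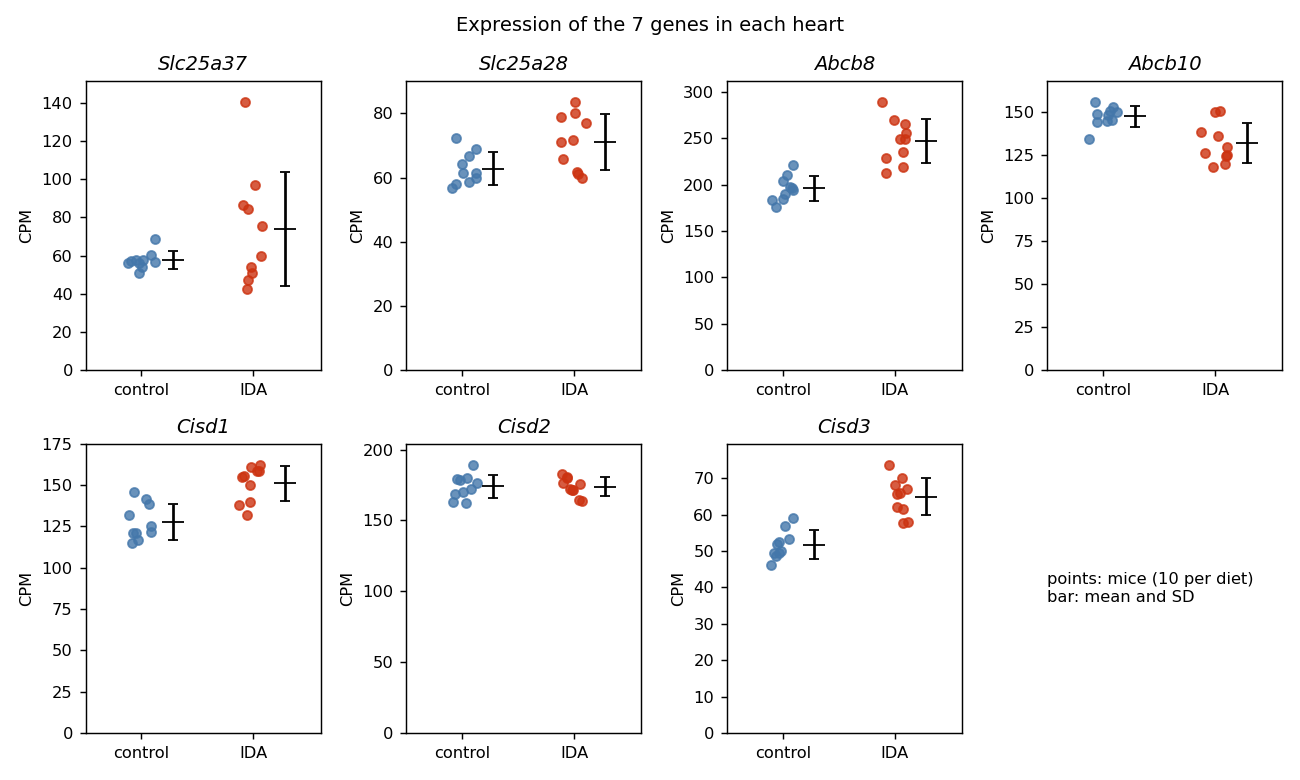
Expression of each gene in CPM (vertical axis, from 0) in the hearts of 10 control and 10 IDA mice. Points are mice and bars give the mean and SD. The control mean lies below all 10 IDA mice for *Abcb8*, *Cisd1* and *Cisd3*, and the IDA mice spread from 42.7 to 140 CPM for *Slc25a37*.

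**Figure D2:**
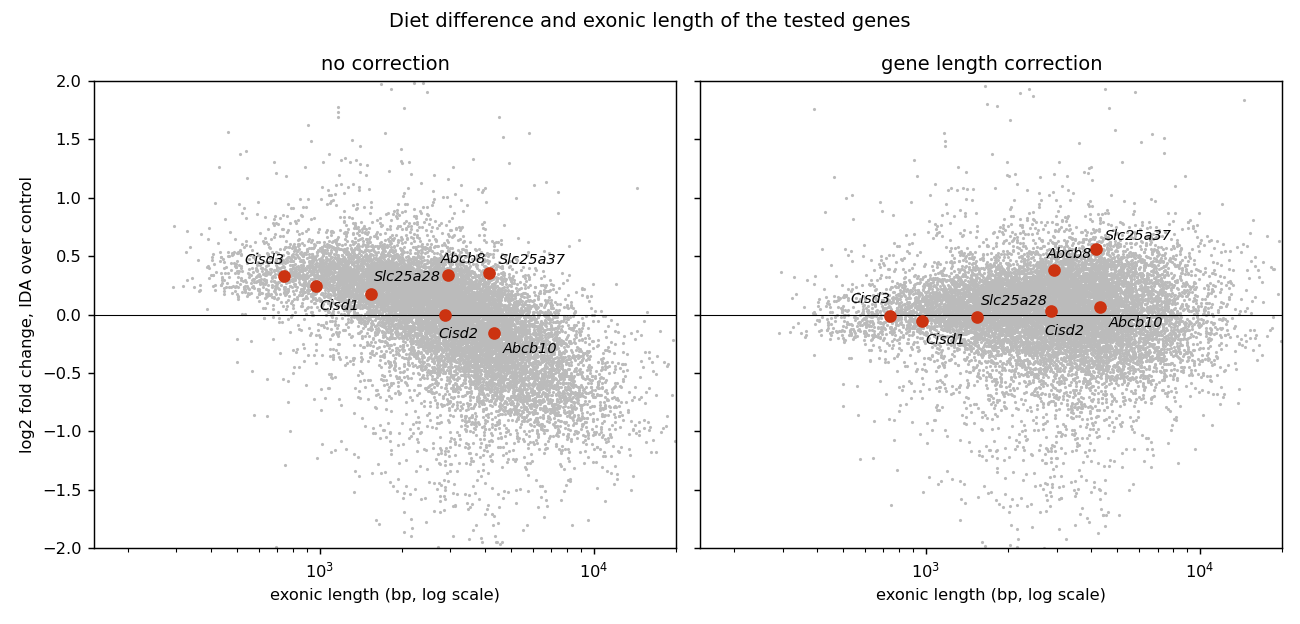
Log2 fold change of IDA over control (vertical axis) against exonic length in bp (horizontal axis, log scale) for the tested genes in gray and the 7 genes in red, without (left) and with (right) the gene length correction. The axes leave out 55 genes on the left and 50 on the right. *Cisd3*, *Cisd1* and *Slc25a28* move to near 0 with the correction, while *Abcb8* and *Slc25a37* stay above it.

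Of the mitoferrins, *Slc25a37* was the gene whose level spread most among IDA mice. It lies on chr14:69241851-69285103 of mm10 (minus strand), with 4 exons of 4162 bp in all. Control hearts ranged from 51.0 to 68.5 CPM with a median of 56.9, and IDA hearts from 42.7 to 140 CPM with a median of 67.6. The groups overlapped on both sides: 5 IDA mice were above the highest control mouse, and 2 were below the lowest. The coefficient of variation was 7.96% in control hearts and 40.4% in IDA hearts. The means were 57.6 ± 4.58 CPM (SD, n = 10) and 73.8 ± 29.8 CPM (SD, n = 10), and the log2 fold change was 0.36 (standard error 0.16, 95% interval 0.03 to 0.69, edgeR p = 0.0355 before and 0.0523 after adjustment), while DESeq2 gave 0.35 (adjusted p = 0.046). Corrected for gene length, the value was 0.56 (standard error 0.15, edgeR adjusted p = 0.00385). IDA mouse 9 had the highest value, and without that mouse and any 1 control mouse the uncorrected log2 fold change was between 0.19 and 0.24 (edgeR adjusted p = 0.114 to 0.227).

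*Slc25a28*, the widely expressed mitoferrin, lies on chr19:43663801-43674881 (minus strand), with 4 exons of 1535 bp. Its control values ran from 56.7 to 72.2 CPM with a median of 61.5, and its IDA values from 60.0 to 83.4 CPM with a median of 71.4. The ranges overlapped, with 4 IDA mice above the highest control mouse and 7 above the control mean. The means were 62.8 ± 5.07 and 71.1 ± 8.61 CPM (SD, n = 10 each), and the log2 fold change was 0.18 (standard error 0.06, edgeR adjusted p = 0.0178). After the length correction the value was -0.02 (edgeR adjusted p = 0.741), and with length and GC content corrected together it was -0.21 (edgeR adjusted p = 0.00206), a call in the other direction. With log2 library size as a covariate it was 0.06 (edgeR adjusted p = 0.486). The call was lost in 23 of 100 fits that left out 1 mouse of each group, most often without IDA mouse 1, where the adjusted p rose to 0.0895.

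The ratio of *Slc25a37* to *Slc25a28*, on CPM per kb of exon, was 0.340 ± 0.0402 in control hearts and 0.392 ± 0.169 in IDA hearts (SD, n = 10 each). Control mice lay between 0.289 and 0.423. No IDA mouse lay inside that range: 5 were above it, up to 0.719, and 5 were below it, down to 0.200. The mean log2 ratio differed by 0.09 between the diets (two-sided permutation test, adjusted p = 0.648 over 4 ratios). After the length correction the difference was 0.50 (permutation test, adjusted p = 0.0274).

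*Slc25a37* followed the erythroid marker genes among the IDA hearts. The marker mean is the mean log2 CPM of 6 tested genes of red cell precursors, among them *Alas2*, *Slc4a1*, *Rhd* and *Trim10*, and it was 2.24 to 3.21 in control mice and 3.36 to 5.99 in IDA mice, without overlap. Among IDA mice, Pearson's r of *Slc25a37* with it was 0.92 (permutation p = 0.00014, adjusted p = 0.00196 over 14 relations of 7 genes in 2 diets) and Spearman's rho 0.85 (permutation p = 0.00292, adjusted p = 0.0409). The 5 IDA mice above every control mouse for *Slc25a37* had marker means of 5.22 to 5.99, and the other 5 had 3.36 to 4.68. Mouse 9, at 140 CPM, had the highest marker mean, and mouse 10, at 42.7 CPM, one of 3.44. Without the 2 mice farthest from the median marker mean, r was 0.92, and with the gene length correction it was 0.91.

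The marker means of the IDA mice had a gap between 3.84 and 4.68. For *Slc25a37*, the 6 mice above the gap gave an r of 0.90 (p = 0.0222) and a rho of 0.71 (p = 0.136), both by an exact permutation test, and no relation was tested in the 4 mice below it. In the control group, r was 0.13 (permutation p = 0.7), with a rho of 0.04 (permutation p = 0.919), and r was 0.28 without the 2 farthest mice and 0.35 with the gene length correction. A fit that included the marker mean as a covariate put *Slc25a37* at -0.54 (standard error 0.13, edgeR adjusted p = 0.00186), a value that extends the relation over marker means that the diets do not share. In whole hearts, more or fewer cells of a type and more or less RNA per cell cannot be told apart.

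For *Abcb10*, the partner of mitoferrin-1, no relation with the erythroid markers passed the threshold in either diet before the gene length correction. Among IDA mice, its r with the marker mean was 0.16 (permutation p = 0.647, adjusted p = 0.828) and its rho 0.03 (permutation p = 0.946), and r was -0.06 without the 2 farthest mice. Among control mice, its r was 0.33 (permutation p = 0.342, adjusted p = 0.713) and its rho 0.42 (permutation p = 0.234), and r was 0.49 without the 2 farthest mice and 0.68 with the gene length correction, a value that was not tested. For *Slc25a28*, *Abcb8*, *Cisd1*, *Cisd2* and *Cisd3*, r among IDA mice was -0.49, -0.61, -0.48, -0.19 and -0.32, and none passed the threshold after adjustment over the 14 relations (adjusted permutation p = 0.469 to 0.828). With the gene length correction these values were -0.42, -0.58, -0.24, -0.36 and -0.08, and that of *Abcb10* among IDA mice was -0.11. Whether r of *Slc25a37* differs from that of the other genes was not tested.

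**Figure D3:**
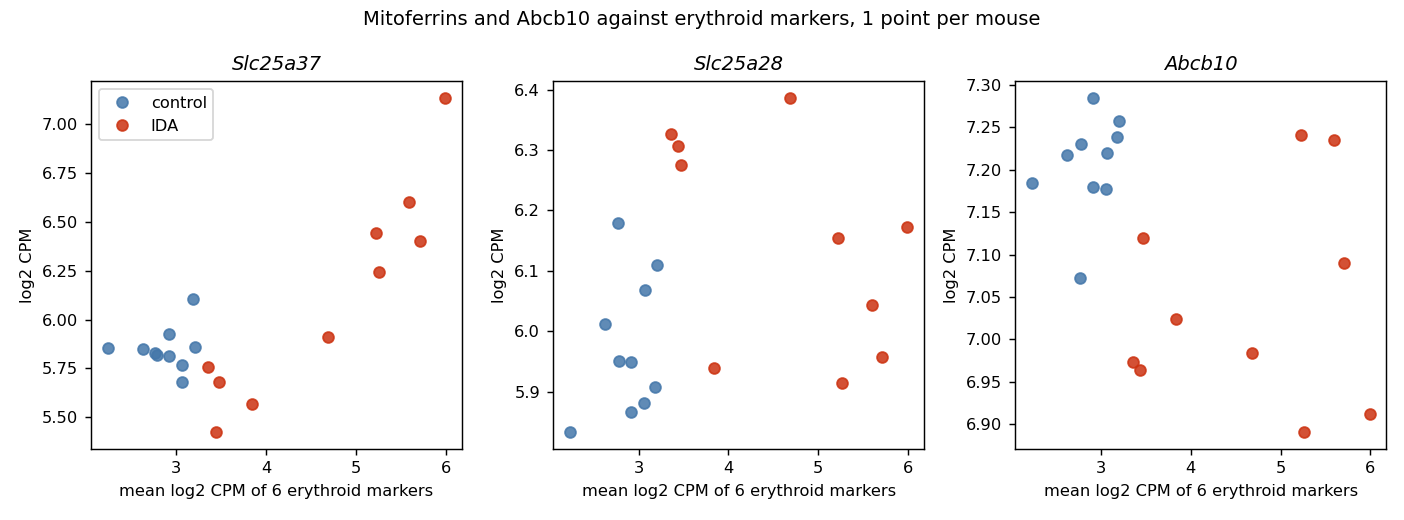
Log2 CPM of *Slc25a37*, *Slc25a28* and *Abcb10* (vertical axes, each with its own range) against the erythroid marker mean, in log2 CPM (horizontal axes). Each point is a mouse, blue for control and red for IDA. *Slc25a37* rises with the marker mean among IDA mice (r = 0.92), and *Abcb10* has an r of 0.16 among them and 0.33 among control mice.

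Of the ABC transporters, *Abcb8* was higher in IDA hearts in every fit of all 20 mice. It lies on chr5:24394156-24409947 (plus strand), with 16 exons of 2940 bp, a length at the middle of the tested genes (percentile 50.9). Control hearts ranged from 176 to 221 CPM with a median of 195, and IDA hearts from 212 to 288 CPM with a median of 249.3. The control mean was exceeded by all 10 IDA mice, and the highest control mouse by 8. The means were 196 ± 13.4 and 247 ± 23.8 CPM (SD, n = 10 each), a 1.26-fold difference (log2 fold change 0.34, standard error 0.05, edgeR adjusted p = 7.13e-06). Corrected for gene length it was 0.38 (edgeR adjusted p = 1.1e-05). The value moved most with length and GC content corrected together, to 0.19 (edgeR adjusted p = 0.00276). It was called in 100 of 100 fits that left out 1 mouse of each group, between 0.29 and 0.38.

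*Ccdc51* encodes the pore that ABCB8 regulates in the ATP-sensitive potassium channel of mitochondria. It had 25.0 ± 1.46 CPM in control and 27.2 ± 2.22 CPM in IDA hearts (SD, n = 10 each). Its log2 fold change was 0.12 (edgeR adjusted p = 0.0475), and 0.07 with the gene length correction (edgeR adjusted p = 0.213).

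*Abcb10* lies on chr8:123952459-123983122 (minus strand), with 13 exons of 4306 bp, longer than 74.0% of tested genes. Control hearts ranged from 134 to 156 CPM with a median of 149, and IDA hearts from 118 to 151 CPM with a median of 128. Of the IDA mice, 6 were below the lowest control mouse and 2 above the control mean. The means were 148 ± 5.85 and 132 ± 11.6 CPM (SD, n = 10 each), with a log2 fold change of -0.16 (standard error 0.04, edgeR adjusted p = 0.00298). The sign changed once length was corrected, to 0.06 (95% interval -0.02 to 0.14, edgeR adjusted p = 0.177). Exons of *Gm45890* on the other strand overlap 444 of its exonic bases in GENCODE M21, as those of *Gm31748* and *Gm27223* overlap 372 and 92 bases of *Slc25a37*. The counting did not use strand, so reads of these pairs cannot be told apart.

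*Abcb10* and *Abcb8* differed in opposite directions without correction. The ratio of *Abcb10* to *Abcb8*, on CPM per kb, was 0.517 ± 0.0497 in control hearts, from 0.416 to 0.584, and 0.368 ± 0.0485 in IDA hearts, from 0.316 to 0.437 (SD, n = 10 each). Of the IDA mice, 8 were below every control mouse. The mean log2 ratio differed by -0.50 (two-sided permutation test, adjusted p = 8e-05), and by -0.32 with the gene length correction (permutation test, adjusted p = 0.0004), where *Abcb10* did not pass the threshold and *Abcb8* was higher.

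Of the CDGSH genes, *Cisd1* and *Cisd3* were higher in IDA hearts without correction, and *Cisd2* had equal means. *Cisd1*, the mitoNEET gene, lies on chr10:71330494-71344849 (minus strand), with 3 exons of 965 bp. Control hearts ranged from 115 to 146 CPM with a median of 124, and IDA hearts from 132 to 162 CPM with a median of 155. Each of the 10 IDA mice exceeded the control mean, and 7 exceeded the highest control mouse. The means were 128 ± 11 and 151 ± 10.7 CPM (SD, n = 10 each), with a log2 fold change of 0.24 (standard error 0.05, edgeR adjusted p = 0.000208). Only 6.26% of tested genes were shorter, and with the gene length correction the value was -0.05 (95% interval -0.13 to 0.03, edgeR adjusted p = 0.28). *Cisd1* had on average 1.07 read pairs per exonic base after removal of duplicates, against 0.117 to 0.582 for the other 6 genes and a maximum over all genes of 2.06 to 2.39 in each mouse.

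*Cisd3*, the gene of the matrix protein with a pair of clusters, lies on chr11:97685952-97688625 (plus strand), with 3 exons of 742 bp. Control hearts ranged from 46.0 to 59.2 CPM with a median of 51.0, and IDA hearts from 57.6 to 73.6 CPM with a median of 65.9. Again each of the 10 IDA mice exceeded the control mean, and 8 exceeded the highest control mouse. The means were 51.8 ± 3.96 and 65.0 ± 5.14 CPM (SD, n = 10 each), a 1.26-fold difference (log2 fold change 0.33, standard error 0.05, edgeR adjusted p = 9e-06). After the length correction the value was -0.01 (95% interval -0.08 to 0.06, edgeR adjusted p = 0.815). *Cisd3* was the shortest of the 7 genes, at percentile 3.04 of the tested genes, and had the same uncorrected fold as *Abcb8*, which is about the median length. Their corrected values differed, at -0.01 and 0.38.

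*Cisd2* lies on chr3:135406412-135423433 (minus strand), with 3 exons of 2869 bp, close to the median length of all tested genes (2900 bp). Control hearts ranged from 162 to 189 CPM with a median of 174, and IDA hearts from 164 to 183 CPM with a median of 174. The IDA range lay inside the control range. The means were 174 ± 8.36 and 174 ± 6.54 CPM (SD, n = 10 each), and the log2 fold change was 0.00 with a 95% interval of -0.07 to 0.07 (edgeR adjusted p = 0.998). Corrected for gene length it was 0.03 (95% interval -0.04 to 0.10, edgeR adjusted p = 0.454), but with length and GC content corrected together it was 0.24 (95% interval 0.16 to 0.33, edgeR adjusted p = 3.23e-05).

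The ratio of *Cisd1* to *Cisd2*, on CPM per kb, was 2.18 ± 0.128 in control hearts and 2.59 ± 0.191 in IDA hearts (SD, n = 10 each), with 8 IDA mice above every control mouse. The mean log2 ratio differed by 0.24 (two-sided permutation test, adjusted p = 0.00024), and with the gene length correction by -0.08 (permutation test, adjusted p = 0.0375). For *Cisd3* to *Cisd2* the ratio was 1.15 ± 0.0728 and 1.45 ± 0.119 (SD, n = 10 each), again with 8 IDA mice above every control mouse. Its mean log2 ratio differed by 0.33 (permutation test, adjusted p = 8e-05), and with the correction by -0.04 (permutation test, adjusted p = 0.239). Both ratios set a short gene against one of median length.

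**Figure D4:**
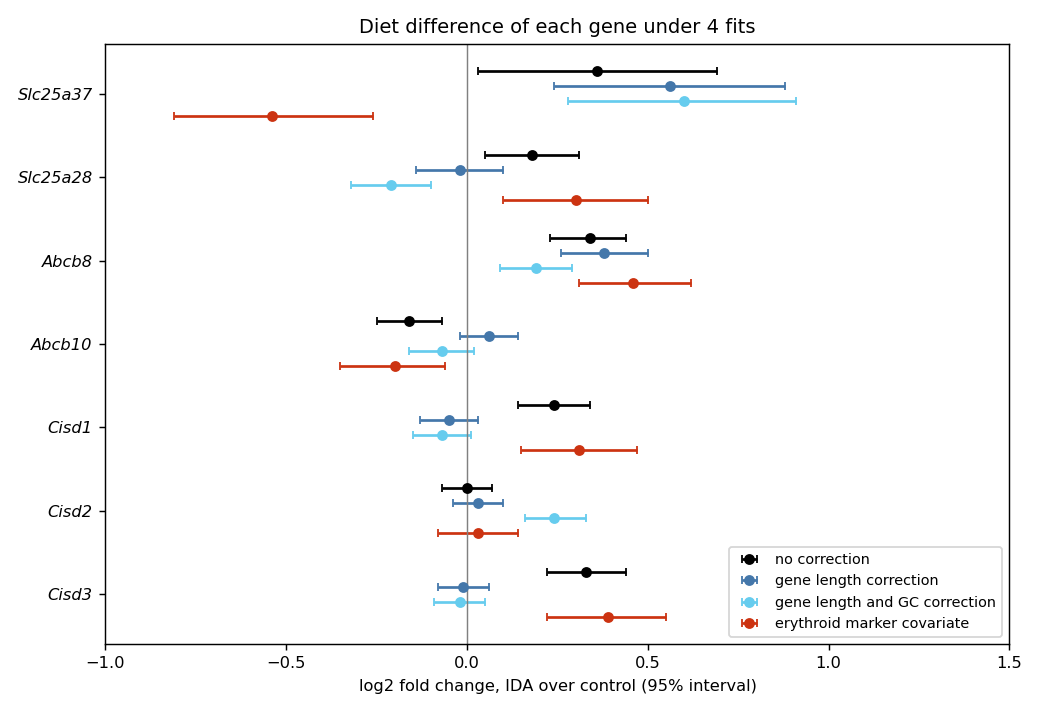
Log2 fold change of IDA over control (horizontal axis) for each gene without correction, with the gene length correction, with length and GC content corrected together, and with the erythroid marker mean as a covariate. Points are estimates and bars 95% intervals. *Abcb8* is above 0 in all 4 fits, and *Slc25a37* runs from -0.54 with the erythroid covariate to 0.60 with length and GC content corrected.

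Measured per kb of exon, the order of the 7 levels was the same in both diets. In control hearts it ran from *Cisd1*, at 133 ± 11.4 CPM per kb, through *Cisd3* (69.8 ± 5.33), *Abcb8* (66.6 ± 4.55), *Cisd2* (60.6 ± 2.91), *Slc25a28* (40.9 ± 3.30) and *Abcb10* (34.3 ± 1.36) to *Slc25a37* (13.8 ± 1.10, SD, n = 10 each). In IDA hearts the levels in that order were 157 ± 11.1, 87.6 ± 6.92, 84.1 ± 8.10, 60.6 ± 2.28, 46.3 ± 5.61, 30.7 ± 2.70 and 17.7 ± 7.15 CPM per kb (SD, n = 10 each). In control hearts every neighbouring pair differed within mice (exact sign-flip permutation test, two-sided, adjusted p = 0.00293 to 0.00781 over 6 pairs). In IDA hearts *Cisd3* and *Abcb8* did not differ beyond the spread within mice (exact permutation test, p = 0.0801, *Cisd3* higher in 8 of 10 mice). The other 5 pairs did (exact permutation test, adjusted p = 0.00293 to 0.00469), and 0.00195 is the smallest p-value that this test can give before adjustment. The widely expressed mitoferrin gene was thus at a higher level than the erythroid one in both diets.

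**Figure D5:**
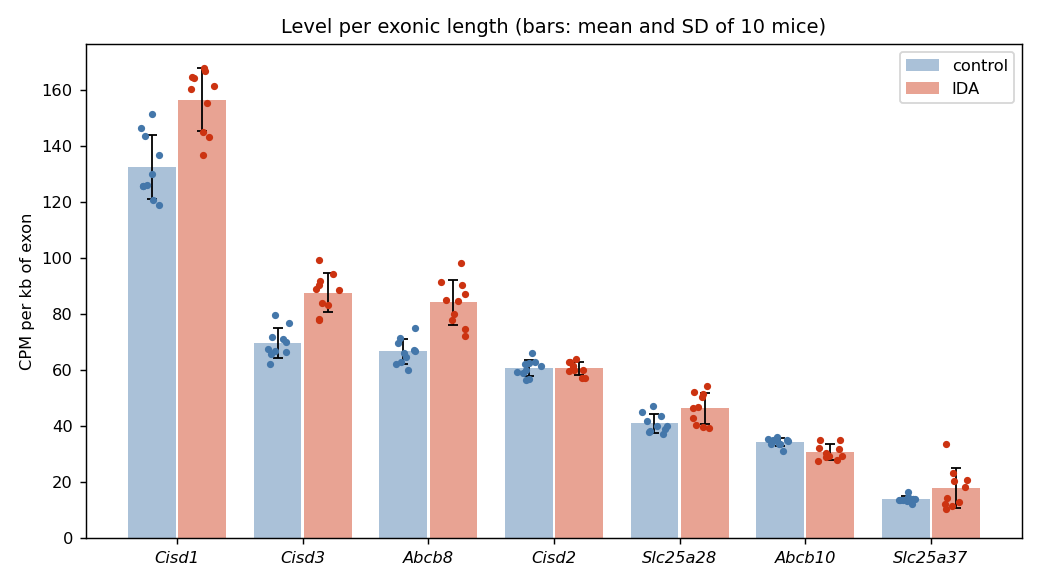
Level of each gene in CPM per kb of exon (vertical axis, from 0) in control (blue) and IDA (red) hearts. Bars are means with SD of 10 mice and points are mice. *Cisd1* is highest at 133 and 157 CPM per kb, and *Slc25a37* lowest at 13.8 and 17.7.

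The library numbers in the column names fell into 2 unbroken runs, the lower with 5 control and 7 IDA mice and the higher with 5 control and 3 IDA mice. What the runs stand for is not given in the sources used here. Within the lower run, the log2 fold changes were 0.44 for *Slc25a37*, 0.27 for *Slc25a28*, 0.38 for *Abcb8*, -0.18 for *Abcb10*, 0.32 for *Cisd1*, -0.01 for *Cisd2* and 0.38 for *Cisd3*. Within the higher run, they were 0.20, 0.08, 0.26, -0.12, 0.17, 0.04 and 0.29 in the same order, and *Abcb8* and *Cisd3* passed the threshold (edgeR adjusted p = 0.0181 and 0.0316). Every gene but *Cisd2* had the same sign in both runs. The log2 ratio of *Abcb10* to *Abcb8* differed between the diets by -0.56 in the lower run and by -0.38 in the higher one (exact permutation test, p = 0.00253 and 0.0714). That of *Cisd1* to *Cisd2* differed by 0.32 and 0.13 (exact permutation test, p = 0.00253 and 0.107), that of *Cisd3* to *Cisd2* by 0.38 and 0.25 (p = 0.00253 and 0.0714 by the same exact test), and that of *Slc25a37* to *Slc25a28* by 0.07 and 0.08. Among the 7 IDA mice of the lower run, r of *Slc25a37* with the erythroid marker mean was 0.92 (exact permutation test, p = 0.00833, adjusted p = 0.0583 over the 7 genes) and rho 0.79 (exact permutation test, p = 0.048, adjusted p = 0.155), so the relation did not pass the threshold within this run after adjustment. In the same 7 mice r was -0.76 for *Slc25a28*, -0.75 for *Cisd1*, -0.73 for *Cisd3*, -0.72 for *Abcb8*, -0.44 for *Cisd2* and -0.01 for *Abcb10* (exact permutation test, p = 0.0452, 0.0377, 0.0738, 0.071, 0.346 and 0.96), with adjusted p = 0.103 for the first 4 by the same exact test. The 3 IDA mice of the higher run were too few to test. These values within runs are without the gene length correction.

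The mice also differed within a diet in ways that several of the genes shared. After subtraction of the diet means, Pearson's r over the 20 mice was 0.86 between *Cisd1* and *Cisd3*, and 0.77 to 0.79 for *Slc25a28* with *Abcb8*, *Cisd1* and *Cisd3* and for *Abcb8* with *Cisd1* and *Cisd3*. These values became 0.71 and 0.52 to 0.71 with the gene length correction. *Slc25a37* had values of -0.35 to 0.16 with the other 6 genes, and of -0.27 to 0.15 with the correction. *Abcb10* had values of -0.28 to 0.24, but with the correction it had 0.33 to 0.53 with the 5 genes other than *Slc25a37*, and -0.06 with that gene. The values describe 20 libraries that share their depth and length slope.

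The genes most like each one by that measure, over all tested genes, were as follows. For *Slc25a37* they were *Apol11b* (r = 0.90), *Fam46c* (0.90) and *Car2* (0.89), the latter the gene of a carbonic anhydrase found in red cells, and the values were 0.90, 0.85 and 0.88 with the gene length correction. For *Slc25a28* they were *Fam195a* (0.91), *Gcat* (0.90) and *Mrps24* (0.90), at 0.82, 0.83 and 0.86 with the correction. For *Abcb8* they were *Rn45s* (0.95), *Ncln* (0.94) and *Letm1* (0.93), at 0.91, 0.95 and 0.95 with the correction. Whether these likenesses come from the hearts or from the making of the libraries was not tested. *Abcb10* was most like *Pm20d2* (0.90), *Hook1* (0.88) and *Opa1* (0.88), of which *Hook1* fell to 0.46 with the correction. For *Cisd1* they were *Tmem109* (0.97) and the complex I genes *Ndufs8* (0.96) and *Ndufc1* (0.96). *Cisd2* was most like *Cnih4* (0.86), *Calm2* (0.79) and *Bnip2* (0.77), with *Calm2* at 0.34 after the correction. For *Cisd3* they were *1810013D10Rik* (0.96), *Fis1* (0.96) and *Taldo1* (0.95).

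Other genes that use or pass on mitochondrial iron were counted in the same fit. The counts of this list, and of the heme, iron regulation and import lists below, stand against the shares of all tested genes. These were 35.0% higher and 32.5% lower, and 31.5% and 23.5% with the gene length correction. Of 19 genes of iron-sulfur cluster assembly, 16 were higher and 1 lower, with a median log2 fold change of 0.31. The median length of these genes was 1095 bp, against 2900 bp over all tested genes. The largest positive values were those of *Fdx1l*, a ferredoxin, at 0.60 (edgeR adjusted p = 0.000137) and *Bola1* at 0.45 (edgeR adjusted p = 0.000225). With the gene length correction, 5 were higher and 4 lower, with a median of 0.04. *Fdx1l* was then at 0.27 (edgeR adjusted p = 0.0399), and *Bola1*, at 0.10 (edgeR adjusted p = 0.25), did not pass the threshold.

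Of 12 genes of the mitochondrial steps of heme synthesis and transport, 9 were higher and 1 lower, with a median of 0.30, and 5 were higher and 1 lower with the correction, with a median of 0.08. The largest values were those of *Alas2*, the erythroid form of the first enzyme, at 1.42 (edgeR adjusted p = 9.07e-07), *Ppox* at 0.38 (edgeR adjusted p = 4.27e-05) and *Hebp1* at 0.33 (edgeR adjusted p = 0.000432). Corrected for gene length, *Alas2* was at 1.30 and *Ppox* at 0.23 (edgeR adjusted p = 5.99e-06 and 0.00272), and *Hebp1*, at 0.05 (edgeR adjusted p = 0.486), did not pass the threshold. *Abcb6*, named after its values were seen as another mitochondrial ABC transporter, was at 0.32 (edgeR adjusted p = 8.68e-06) and at 0.36 with the correction (edgeR adjusted p = 1.1e-05). *Abcb8* and *Abcb6* were thus higher in both fits, and *Abcb10* was lower in the uncorrected fit but not in the corrected one.

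Of 9 tested genes of iron regulation and storage, 3 were higher and 4 lower, with a median of 0.01, and 3 and 4 with the correction, with a median of -0.07. The largest values were those of *Slc40a1*, the iron exporter ferroportin, at -0.91 (edgeR adjusted p = 5.97e-07), *Ncoa4*, which delivers ferritin for breakdown, at -0.80 (edgeR adjusted p = 3.28e-07), and *Ireb2*, an iron regulatory protein, at -0.70 (edgeR adjusted p = 6.4e-07). They were at -0.81, -0.67 and -0.34 with the correction and passed the threshold (edgeR adjusted p = 2.7e-06, 8.79e-07 and 4.3e-05). *Ftmt*, the mitochondrial ferritin gene, had 0 read pairs in every mouse. Of 28 genes of mitochondrial import and the outer membrane, where mitoNEET sits, 21 were higher and 2 lower, with a median of 0.22, and 12 and 2 with the correction, with a median of 0.08. The largest values were those of *Timm13* (0.46, edgeR adjusted p = 1.52e-06), *Tomm6* (0.42, edgeR adjusted p = 1.36e-06) and *Timm50* (0.41, edgeR adjusted p = 2.05e-06), parts of the import machinery. With the correction they were 0.20, 0.14 and 0.15 and passed the threshold (edgeR adjusted p = 0.000649, 0.00428 and 0.00216).

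Markers of the cells in the tissue were measured beside these results. Their counts also stand against 35.0% of all tested genes higher and 32.5% lower, or 31.5% and 23.5% with the gene length correction. Cardiomyocyte markers (12 of 12 tested) summed to 7440 to 10700 CPM in control and 6410 to 9480 CPM in IDA hearts, and 5 were higher and 2 lower, against 4 and 6 with the gene length correction. Of 19 erythroid markers that were counted, 6 passed the filter on low counts, of which 5 were higher and 1 lower, against 4 and 0 with the correction. The sum over the whole erythroid list was 119 to 184 CPM in control and 184 to 716 CPM in IDA hearts. *Trim10* and *Slc4a1* had log2 fold changes of 4.21 and 4.04 (edgeR adjusted p = 8.98e-06 and 2.21e-06). The globin genes *Hba-a1*, *Hba-a2* and *Hbb-b2* had 0 counted read pairs in every mouse. Whether these counts reflect the RNA in the hearts or the mapping and counting of reads was not tested. Of the 8 endothelial, 8 fibroblast, 10 leukocyte and 5 adipocyte markers tested, 4, 1, 6 and 2 were higher and 3, 1, 2 and 0 lower. With the correction, 4, 3, 4 and 1 were higher and 0, 2, 0 and 1 lower. The leukocyte sums were 392 to 452 CPM in control and 395 to 523 CPM in IDA hearts. The part of these cells in the differences of the 7 genes was not tested beyond the erythroid relations given above.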

How the data were processed

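Messenger RNA was sequenced from whole hearts of 10 control and 10 IDA mice. According to the study's methods, the authors mapped reads with STAR to mm10 and discarded PCR duplicates. Read pairs on exons were then tallied by the authors with featureCounts (1.4.5-p1 per the file headers), without strand. They deposited these counts, without normalization, for 23420 genes, and all 20 columns were used. The diet of each mouse was taken from its label.

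Genes reaching 1 CPM in 10 or more mice (13590) were fitted in R 4.3.3 with edgeR 4.0.16 (TMM, quasi-likelihood test, diet as the only factor), and with DESeq2 1.42.0 as an alternative. A prior count of 2 was added for log2 CPM. The gene length correction subtracted a loess curve (span 0.5, degree 1) of each mouse's deviations on log2 exonic length, entered as offsets. GC content was known for 94.0% of tested genes. Ratios and correlations were tested by permutation (100000 resamples, two-sided), or exactly for subsets of mice (those above the gap in erythroid markers, and each run of library numbers) and for pairs of levels within mice. No 2 mice of a diet had counts within sampling noise of each other (lowest chi-square per degree of freedom 1.51). At these depths the 7 genes had 290 to 1948 read pairs per mouse.

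The 7 genes and the gene lists were chosen with earlier results of these data known. Genes named besides the 7 are up to 3 of each list with the largest log2 fold change in size, and the 3 with the highest within-diet correlation with each gene, with *Abcb6* added after its values were seen. Some genes that the rule selects are not reported here.

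The edgeR fit and the gene length correction were tested on simulated data. When 200 of 13590 genes were given known fold changes, 79.0% of these were recovered, and 4.24% of calls were false. Far fewer genes changed there than the 9175 called in these mice, so these rates need not hold for them. With only a length trend simulated, 6153 genes were called without the correction and 0 with it. That trend was the curve fitted to these mice, and the same kind of curve removed it. The 0 therefore follows from the design and cannot show whether the correction also removes differences due to diet. Alternatives were other normalizations, filters, covariates, a replicate block and left-out mice. A covariate for library number runs, and fits of each run alone, were added after seeing the data.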

Additional observations from a re-analysis of the deposited data

Results flagged for a closer look

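*Abcb10* in control hearts had 1 mouse apart from the others. Control mouse 2 had 134 CPM and the next lowest 144 CPM, and this gap was 0.474 of the whole control range, above the limit for 10 samples. The 7 genes and 4 ratios in each diet were examined in this way, 22 groups in all, and chance alone sets apart about 1 in 20 of them. Without this mouse and any 1 IDA mouse, *Abcb10* was lower in IDA hearts in 10 of 10 fits.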

How the results depend on the processing

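Apart from the fits without 1 mouse of each group, 132 values were recomputed. They include fits of 1 run of library numbers alone and correlations without the 2 mice farthest in erythroid markers. Of the 132, 91 were the same. For 10 counts of genes higher and 9 of genes lower, this means only a similar number. For the rest it means the same direction and side of the threshold. *Cisd2*, at 0.00 without correction, has no direction to keep. Of the values not among the 91, 8 are shifts of *Cisd2* above 0, to between 0.00 and 0.24, of which the highest passed the threshold. *Abcb8* stayed higher and past the threshold in all 12 of its fits, between 0.19 and 0.46. With the gene length correction, *Slc25a37* rose to 0.56 and passed the threshold, and *Slc25a28* (-0.02), *Abcb10* (0.06), *Cisd1* (-0.05) and *Cisd3* (-0.01) changed sign, and *Cisd2* was at 0.03, leaving 2 genes higher and 0 lower. It also moved the log2 ratio of *Slc25a37* to *Slc25a28* to 0.50, past the threshold, that of *Cisd1* to *Cisd2* to -0.08 and that of *Cisd3* to *Cisd2* to -0.04, and r of *Abcb10* with the erythroid markers to -0.11. Uncorrected and without the 2 farthest mice, that r was -0.06. With length and GC content corrected together, the values were 0.60 for *Slc25a37*, -0.21 for *Slc25a28*, -0.07 for *Abcb10*, -0.07 for *Cisd1*, 0.24 for *Cisd2* and -0.02 for *Cisd3*, and edgeR called 5916 genes in all, against 7474 with length alone and 9175 without correction. The erythroid covariate gave -0.54 for *Slc25a37* and 0.03 for *Cisd2*, with 2 genes lower. DESeq2 gave 0.35 for *Slc25a37* (adjusted p = 0.046), and the unfiltered table and the run covariate gave 0.00 and 0.01 for *Cisd2*. The library size covariate gave 0.06 for *Slc25a28*, which lost its call. It also lowered *Cisd1* to 0.11 (edgeR adjusted p = 0.00851), *Cisd3* to 0.22 and *Abcb8* to 0.23, which kept their calls. In the higher run of library numbers alone, *Slc25a28* (0.08), *Abcb10* (-0.12) and *Cisd1* (0.17) lost their calls and *Cisd2* was at 0.04, so that 2 genes were higher and 0 lower among 8 mice. The causes of these changes were not tested.

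The sample names share the numbers 1 to 10 across diets, and the numbers do not pair the mice: correlations of same-numbered deviations were -0.278 to 0.264, and 3 of 10 mice matched best with their own number. With the replicate block, 8912 genes were called, and the values were 0.28 for *Slc25a37* (adjusted p = 0.0846), 0.17 for *Slc25a28*, 0.33 for *Abcb8*, -0.16 for *Abcb10*, 0.24 for *Cisd1*, 0.00 for *Cisd2* and 0.33 for *Cisd3*, with no call of the 7 genes changed. The block with the gene length correction gave 0.48 for *Slc25a37*, -0.03 for *Slc25a28*, 0.06 for *Abcb10*, -0.05 for *Cisd1*, 0.03 for *Cisd2* and -0.01 for *Cisd3*, with 2 genes higher and 0 lower.

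Over the 100 fits without 1 mouse of each group, log2 fold changes were 0.19 to 0.45 for *Slc25a37* (called in 38, among them all 10 without IDA mouse 3 and all 10 without IDA mouse 10), 0.12 to 0.23 for *Slc25a28* (called in 77), -0.20 to -0.13 for *Abcb10*, 0.20 to 0.28 for *Cisd1*, -0.03 to 0.02 for *Cisd2* and 0.28 to 0.37 for *Cisd3*. The log2 ratio of *Slc25a37* to *Slc25a28* ran from -0.04 to 0.22. Between 3 and 5 genes were higher. The length slope and the erythroid marker mean did not overlap between the diets, so neither correction can be told apart from the diet itself. A depth of at most 8960688 read pairs per mouse limits genes near the filter more than the 7 genes.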
